A study of Mus musculus with 24 samples.

Results

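Chemokines are small secreted or membrane-bound proteins that direct leukocyte and glial movement by binding G protein-coupled receptors. They are named by the spacing of their first cysteines, which adjoin in CC chemokines and are set apart by other residues in CXC and CX3C chemokines. In the brain, Ccl2, Ccl7 and Ccl12 act on CCR2 of monocytes, Ccl3 and Ccl5 on CCR1, Cxcl1 on CXCR2, Cxcl10 on CXCR3, Cxcl16 on CXCR6, and Cx3cl1, which neurons make, on CX3CR1 of microglia. The expression of 10 such genes (Ccl2, Ccl3, Ccl4, Ccl5, Ccl7, Ccl12, Cxcl1, Cxcl10, Cxcl16 and Cx3cl1), picked by their gene symbols, was examined among the 18647 genes of the deposited table, and all 10 passed the filter on low counts. The 10 genes were chosen with earlier results of these data known, so their counts of calls beside those of all genes are descriptions.

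RNA was sequenced from microdissected CA1, a subfield of the hippocampus, of C57Bl/6N mice at least 60 days old. Status epilepticus (SE), a prolonged seizure, was induced with 335 mg/kg pilocarpine, a muscarinic agonist, and tissue was taken 6, 12, 24, 36 or 72 h later, from animals that developed SE only. Control mice (Ctr) received saline in place of pilocarpine and were taken at 12, 36 or 72 h. Both arms had 1 mg/kg scopolamine methyl nitrate 20 min before and 4 mg/kg diazepam, given 40 min after SE onset in SE animals, so the controls carry both drugs. Every group (8 in all) comprised 3 libraries, 24 together, and for SE at 6 and 24 h, with no control group of their own here, the mean of the 3 control groups was used. The labels do not say whether a library pools animals, so p-values measure the spread between these libraries.

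Library totals ran from 2663936 to 30133731 counts (median 13521590), and were lowest in Ctr 72 h (2663936 to 11680209). The CA1 marker Fibcd1 was present in every library, with a mean of 234 CPM (the library's counts scaled to a common total, with TMM normalization) in Ctr 72 h and 83.0 CPM in SE 72 h, and of the 6 CA1 genes listed, 3 were called lower at 36 h, by the threshold given with the first comparison (Fibcd1, Mpped1 and Pou3f1), 2 at 72 h (Fibcd1 and Mpped1) and none higher. Among all genes, 21.6% and 19.4% were called in either direction at 36 and 72 h (12.7% and 15.2% higher), and the rest, the smaller part at both times, lower. At 72 h Wfs1 and Man1a had log2 fold changes of 0.51 and 0.15, and Fibcd1 one of -1.45, or -1.22 without Ctr 72 h replicate 2, where its call was lost (adjusted p = 0.144 by edgeR's quasi-likelihood test) and that of Mpped1 was kept. The library Ctr 72 h replicate 2 stood apart: a list of sensory ganglion genes summed to 2658 CPM in it, against 69.2 to 174 CPM in the other 8 control libraries and 107 to 1557 CPM in the SE libraries. The tests of the chemokine genes and of the listed receptors, ligands and markers at 72 h were therefore also run without it. SE 72 h replicates 1 and 2, with 1557 and 832 CPM of that list against 112 CPM in replicate 3, were kept in these runs. The list also summed to 1452 CPM in SE 36 h replicate 3 and 608 CPM in SE 6 h replicate 3. At 12 h all SE libraries (195 to 1241 CPM) lay above all controls (70.9 to 84.7 CPM) for it. In tissue RNA, more cells of a type and more RNA per cell cannot be told apart.

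Transcripts of 9 of the 10 genes were upregulated after SE at 12 and 36 h, and Cx3cl1, the most abundant of them, was the exception. Genes with a log2 fold change (log2FC) of 0.66 or more in size and a Benjamini-Hochberg adjusted p of 0.05 or less by edgeR's quasi-likelihood test were called. At 12 h, 9 genes were called, all higher, where 13.9% of all 18153 genes tested were called higher (25.2% in either direction). At 36 h, the same count of 9 was called, all higher, against 12.7% of all genes (21.6% in either direction). At 72 h, 8 genes were called, all higher, against 15.2% of all genes (19.4% in either direction), and 7 were called without Ctr 72 h replicate 2, where Ccl7 was lost. Without that library the log2FC at 72 h was 4.06 for Ccl4 (4.80 with it), 1.97 for Cxcl1 and -0.56 for Cx3cl1, and Ccl5 and Cxcl10 were called as with it. The median log2FC of the 10 genes was 5.28, 6.08 and 4.32 at 12, 36 and 72 h, where the median of all genes was 0.007, 0.003 and 0.097. With genes that had 0 counts in the controls set at their lower bound, the medians became 4.31, 6.08 and 3.77. SE libraries did not overlap the time-matched controls, and were higher, for 9 genes at 12 h (24.5% of all genes), 9 at 36 h (25.8%) and 8 at 72 h (19.4%). At 12 h these were not the 9 called: Cx3cl1 was among them and Ccl5, with 0 counts in SE 12 h replicate 1, was not. Lower without overlap was 1 gene, Cx3cl1, at 36 h (26.2% of all genes). Against all 9 control libraries together, 8, 7, 8, 8 and 8 of the genes lay above at the 5 times from 6 to 72 h (in order, 12.9%, 14.4%, 13.6%, 12.7% and 13.9% of all genes). For 6 genes (Ccl2, Ccl3, Ccl4, Ccl7, Ccl12 and Cxcl10) all 15 SE libraries lay above all 9 control libraries, as did 3.03% of all genes.

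**Figure D1:**
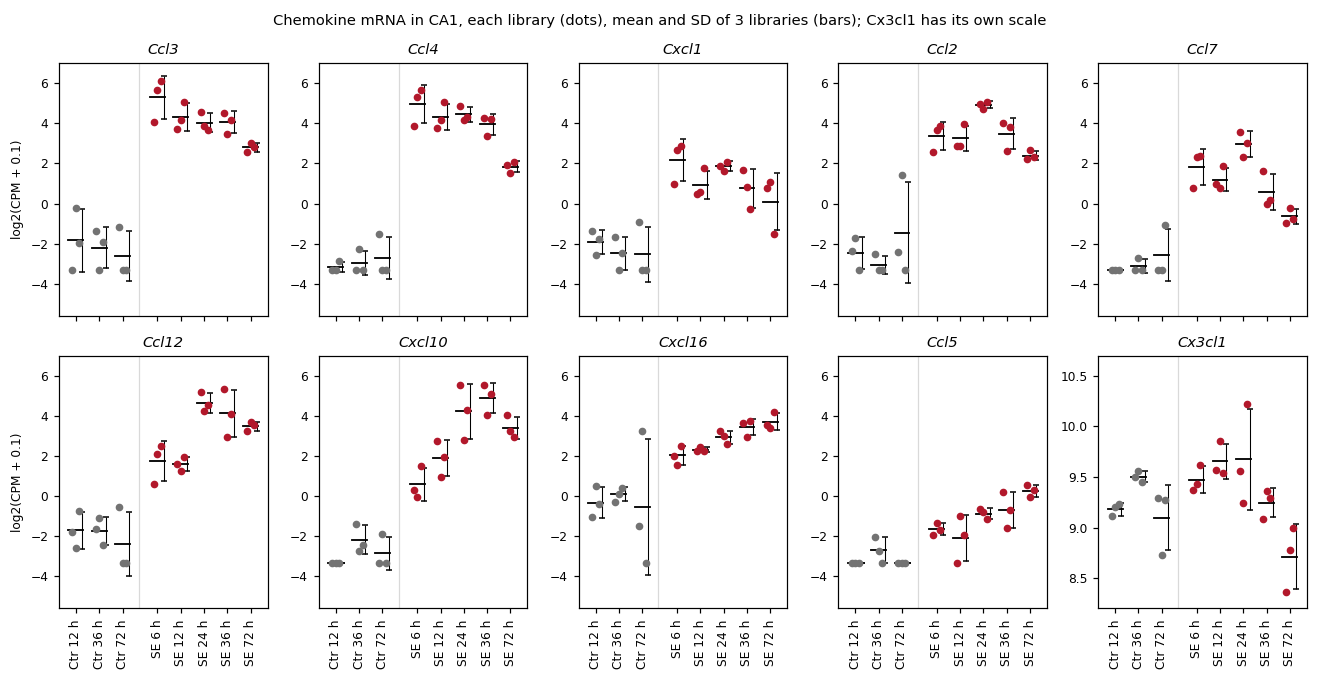
Level of each chemokine gene as log2(CPM + 0.1), on the vertical axis, in the 3 control groups (grey) and 5 SE groups (red); dots are libraries, and bars give the mean and SD of 3 libraries. For Ccl2, Ccl3, Ccl4, Ccl7, Ccl12 and Cxcl10, all 15 SE libraries sit above all 9 control libraries, while Cx3cl1, on its own scale, overlaps.

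Of these genes, 7 lie on chromosome 11 (build GRCm39), and 6 of them in a pair of clusters. Ccl2 (chr11:81926397-81928279), Ccl7 (chr11:81936532-81938351) and Ccl12 (chr11:81992645-81994466) are on the plus strand within 68.1 kb, with Ccl11 between the last pair. Ccl5 (chr11:83416602-83425942, minus strand), Ccl3 (chr11:83538670-83540191, minus strand) and Ccl4 (chr11:83553383-83555509, plus strand) span 139 kb together with Ccl9 and Ccl6. Cxcl16 is at chr11:70344517-70352620 (minus strand), Cxcl1 at chr5:91039094-91040974 (plus strand), Cxcl10 at chr5:92494497-92496748 (minus strand) and Cx3cl1 at chr8:95498637-95509055 (plus strand).

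The 250 bases before the start of the transcript annotated as canonical are shown, 5′ to 3′ on the gene's strand, for Cxcl1 and Cxcl10, CXC genes highest at different times, and for Ccl2 and Ccl12, neighbours whose ratio shifted over time. Capitals mark letters matching 1 of 4 motifs on either strand: the kappaB motif, AP-1 (TGANTCA), the interferon-stimulated response element (ISRE, GAAANNGAAA) and CRE (TGACGTCA). Overlapping matches run together.
Cxcl1 (chr5:91038844-91039093, plus strand): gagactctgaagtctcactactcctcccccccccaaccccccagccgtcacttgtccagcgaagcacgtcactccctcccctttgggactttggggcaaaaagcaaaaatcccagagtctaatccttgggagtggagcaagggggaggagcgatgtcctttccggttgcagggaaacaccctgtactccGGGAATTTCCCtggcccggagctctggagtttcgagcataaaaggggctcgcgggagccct
Cxcl10 (chr5:92496749-92496998, minus strand): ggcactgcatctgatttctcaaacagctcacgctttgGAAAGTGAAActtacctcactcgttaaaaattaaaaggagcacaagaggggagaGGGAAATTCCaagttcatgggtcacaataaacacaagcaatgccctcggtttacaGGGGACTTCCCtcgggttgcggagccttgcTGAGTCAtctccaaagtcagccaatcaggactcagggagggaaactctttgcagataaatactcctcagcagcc
Ccl2 (chr11:81926147-81926396, plus strand): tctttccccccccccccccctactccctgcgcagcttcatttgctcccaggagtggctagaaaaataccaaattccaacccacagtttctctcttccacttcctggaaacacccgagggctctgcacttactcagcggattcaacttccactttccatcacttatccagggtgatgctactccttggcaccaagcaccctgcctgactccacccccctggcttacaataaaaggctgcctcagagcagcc
Ccl12 (chr11:81992395-81992644, plus strand): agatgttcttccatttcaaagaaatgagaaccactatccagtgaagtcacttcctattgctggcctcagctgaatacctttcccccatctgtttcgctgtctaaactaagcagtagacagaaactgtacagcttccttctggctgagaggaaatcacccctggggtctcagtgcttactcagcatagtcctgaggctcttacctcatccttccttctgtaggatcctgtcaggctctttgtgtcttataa
The Cxcl10 window held 2 kappaB stretches (159 to 150 and 104 to 94 bases before the start), 1 AP-1 match (74 to 68) and 1 ISRE match (213 to 204), and that of Cxcl1 held 1 kappaB stretch of 2 overlapping matches (61 to 51). Among the others, Ccl5 had a kappaB match (89 to 80), Ccl7 an AP-1 match (63 to 57) and Cxcl16 a CRE match (76 to 69), and the windows of Ccl2, Ccl3, Ccl4, Ccl12 and Cx3cl1 held none of these letters. Of 21770 windows of the same length before protein-coding genes, 7.62% held a kappaB match, 6.17% an AP-1, 3.32% an ISRE and 1.69% a CRE match. A match is a description of letters.

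Ccl3 and Ccl4, a pair of macrophage inflammatory proteins that draw leukocytes, had their highest group mean 6 h after SE and their lowest SE mean at 72 h. Ccl3, also called MIP-1α, measured 16.5, 51.0 and 69.4 CPM at 6 h, 12.9, 17.6 and 33.8 at 12 h, 23.4, 14.6 and 12.4 at 24 h, 23.1, 11.1 and 17.8 at 36 h, and 5.86, 8.01 and 6.92 at 72 h, in replicates 1, 2 and 3. The 9 control libraries held 0 to 0.760 CPM (25 counts in all), so no SE library reached down to them. Mean CPM at 12 h was 70.3 times that of Ctr 12 h, and log2FC was 6.05 (s.e. 0.69; edgeR's quasi-likelihood test, Benjamini-Hochberg adjusted p = 1.93e-06). The log2FC was 6.94 (s.e. 0.78) at 36 h and 5.58 (s.e. 1.00) at 72 h, or 4.61 at 72 h without Ctr 72 h replicate 2. With limma-voom in place of edgeR the call at 72 h was lost (log2FC 5.07, adjusted p = 0.0875). Against the mean of the controls, Ccl3 had a log2FC of 7.96 (s.e. 0.50) at 6 h and of 5.21 (s.e. 0.56) at 72 h.

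Ccl4 (MIP-1β), the neighbour of Ccl3, measured 14.5, 39.8 and 49.9 CPM at 6 h, 13.3, 17.7 and 32.8 at 12 h, 28.8, 17.8 and 19.7 at 24 h, 19.4, 10.2 and 18.1 at 36 h, and 3.73, 2.77 and 4.09 at 72 h. The controls held 6 counts in all (0 to 0.253 CPM). At 12 h the ratio to Ctr 12 h, with 1 control count, was 983 (95% exact counting interval 176 to 38870), and at 72 h, with 3 control counts, it was 25 (8.40 to 122). These intervals cover counting error only. The gene was called at 12, 36 and 72 h, and with limma-voom the call at 72 h was lost (log2FC 4.34, adjusted p = 0.0948). Between 36 and 72 h, Ccl4 fell by 2.18 on the log2 scale (s.e. 0.42; edgeR's quasi-likelihood test, Benjamini-Hochberg adjusted p = 0.00257), the single call of these genes between those times (at an absolute log2FC of at least 1), where 4.13% of all genes were called (1.05% lower). Ccl3 had a log2FC of -1.35 over the same interval, which did not pass (adjusted p = 0.0868 by edgeR's quasi-likelihood test, Benjamini-Hochberg). Over this interval Ccl2, Ccl3, Ccl7, Cxcl10 and Cx3cl1, none of them called, had an unadjusted p under 0.05 by the same test. The count ratio of Ccl3 to Ccl4 within a library was 1.14 to 1.39 at 6 h, 0.970 to 1.03 at 12 h, 0.630 to 0.824 at 24 h, 0.981 to 1.19 at 36 h, and finally 1.57 to 2.90 at 72 h.

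Ccl5 (RANTES), which draws T cells and monocytes, was a rare transcript with its highest group mean at 72 h. Libraries held 0.160, 0.294 and 0.212 CPM at 6 h, 0, 0.398 and 0.159 at 12 h, 0.531, 0.479 and 0.350 at 24 h, 1.04, 0.237 and 0.513 at 36 h, and 1.36, 0.858 and 1.12 at 72 h. The highest library held 23 counts, and the controls 3 counts in all, each in Ctr 36 h. Against the floor of 3 counts over the control group, Ccl5 was at least 3.15-fold higher at 12 h and at least 7.56-fold higher at 72 h, and at 36 h the ratio was 8.96 (95% counting interval 2.75 to 46.3). It was called at each of these times. With a factor for ranges of the numbers in the sample descriptions the call at 72 h was lost (adjusted p = 1 by edgeR's quasi-likelihood test, Benjamini-Hochberg), as were its calls against the mean of the controls at all 5 times. At 12 h the call was lost without SE 12 h replicate 2 (log2FC 3.06; edgeR's quasi-likelihood test, Benjamini-Hochberg adjusted p = 0.148) and also when Ctr 12 h replicate 3 was left out (adjusted p = 0.0801, same test), and with limma-voom (adjusted p = 0.108). At 36 h it was lost without SE 36 h replicate 1, Ctr 36 h replicate 2 or Ctr 36 h replicate 3 (adjusted p = 0.101, 0.0879 and 0.0803 by edgeR's quasi-likelihood test, Benjamini-Hochberg).

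The CCR2 ligands Ccl2, Ccl7 and Ccl12 had their highest mean 24 h after SE. Ccl2 (MCP-1), the main monocyte attractant, measured 5.83, 12.7 and 14.4 CPM at 6 h, 7.31, 7.16 and 15.7 at 12 h, 31.1, 26.5 and 33.6 at 24 h, 16.2, 5.99 and 13.7 at 36 h, and 4.5, 6.2 and 4.87 at 72 h. The 24 h libraries lay above every other SE library. In controls Ccl2 was at 0 to 0.207 CPM except in Ctr 72 h replicate 2, which held 15 counts (2.56 CPM). At 12 h the mean was 99.9 times that of Ctr 12 h (log2FC 6.89, s.e. 0.75; edgeR's quasi-likelihood test, Benjamini-Hochberg adjusted p = 1.14e-06), and at 36 h the log2FC was 8.62 (s.e. 0.87) over a single control count. At 72 h the log2FC was 3.52 (s.e. 0.74; adjusted p = 0.00137 by edgeR's quasi-likelihood test, Benjamini-Hochberg), 6.06 when Ctr 72 h replicate 2 was left out, and 2.11 when replicate 1 of that group was, which ended the call (adjusted p = 0.0574, same test). It was also lost in the fit of the compared groups only (log2FC 2.50, adjusted p = 0.192 by edgeR's quasi-likelihood test) and with limma-voom (3.00, adjusted p = 0.0689).

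Ccl7 (MCP-3) measured 1.60, 4.90 and 5.10 CPM at 6 h, 1.84, 1.59 and 3.51 at 12 h, 11.9, 4.83 and 8.06 at 24 h, 2.96, 0.867 and 1.03 at 36 h, and 0.414, 0.763 and 0.487 at 72 h, and its controls held 2 counts in all. It was at least 39.2-fold higher at 12 h, and the ratio was 71.4 at 36 h (95% counting interval 12.4 to 2859) and 10.6 at 72 h (1.74 to 437), each over 1 control count. Its call at 72 h was marginal (log2FC 3.70, s.e. 1.35; edgeR's quasi-likelihood test, Benjamini-Hochberg adjusted p = 0.0487). Without Ctr 72 h replicate 2 that p was 0.142, and the omission of any 1 of the 6 libraries other than Ctr 72 h replicate 3 ended the call, as did 7 of 12 other settings. At 36 h it was lost with counts thinned to the smallest library (adjusted p = 0.0541 by edgeR's quasi-likelihood test). Within a library, 0.274 to 0.385 counts of Ccl7 were found per count of Ccl2 at 6 h, and 0.0921 to 0.123 at 72 h.

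Ccl12 (MCP-5), a CCR2 ligand of mice, was low at 6 and 12 h. It measured 1.44, 4.21 and 5.65 CPM at 6 h, 2.88, 2.29 and 3.74 at 12 h, 36.3, 18.6 and 23.2 at 24 h, 39.9, 7.57 and 17 at 36 h, and 9.29, 12.7 and 11.6 at 72 h, against 0 to 0.591 CPM in controls. All libraries from 24 h on lay above all those of 6 and 12 h. The log2FC against the time-matched controls was 3.25 (s.e. 0.70), 6.43 (s.e. 0.72) and 5.36 (s.e. 0.84) at 12, 36 and 72 h, and 4.56 at 72 h without Ctr 72 h replicate 2. The call at 12 h was lost with limma-voom (log2FC 3.42, adjusted p = 0.0617) and with thinned counts (2.88, adjusted p = 0.0506 by edgeR's quasi-likelihood test). The count ratio of Ccl12 to Ccl2 was 0.247 to 0.393 at 6 h, 0.239 to 0.395 at 12 h, 0.691 to 1.17 at 24 h, 1.24 to 2.46 at 36 h, and finally 2.05 to 2.39 at 72 h, so that the libraries of 6 and 12 h did not overlap those of 24 h, nor those of 24 h the later ones. The gene pairs for ratios were chosen with their values known, and the ratios are given without a test.

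**Figure D2:**
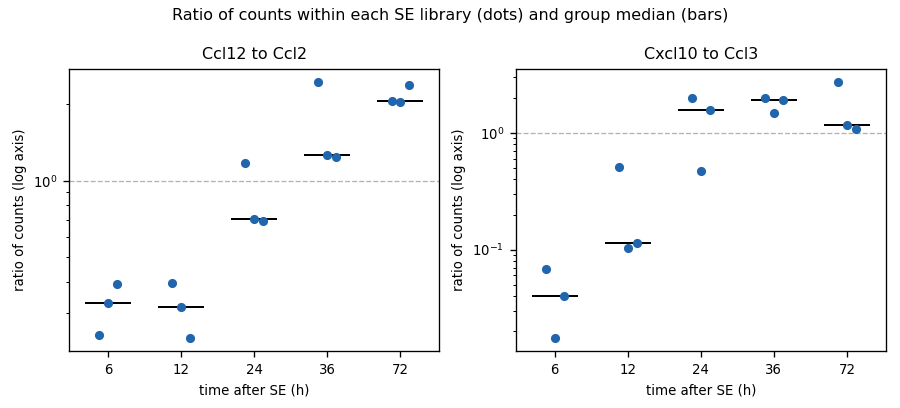
Ratio of counts of Ccl12 to Ccl2 (left) and of Cxcl10 to Ccl3 (right) within each SE library, on a log axis, against time after SE in h; dots are libraries, bars group medians, and the dashed line marks equal counts. The median Ccl12 to Ccl2 ratio was 0.331 at 6 h and 2.07 at 72 h, and the median Cxcl10 to Ccl3 ratio 0.0398 at 6 h and 1.93 at 36 h.

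Cxcl1 (KC), which draws neutrophils, had its highest group mean at 6 h. It measured 1.84, 6.27 and 7.13 CPM at 6 h, 1.29, 1.39 and 3.27 at 12 h, 3.61, 3.01 and 4.13 at 24 h, 3.11, 1.66 and 0.741 at 36 h, and 1.60, 2.00 and 0.244 at 72 h, against 0 to 0.422 CPM in controls. A library of 72 h thus lay within the control range. Mean CPM was 10.9 times that of Ctr 12 h and 18.5 times that of Ctr 36 h, and both were called (log2FC 3.33, s.e. 0.85, and 4.14, s.e. 0.96). At 72 h the log2FC of 3.03 (s.e. 1.14) did not pass (edgeR's quasi-likelihood test, Benjamini-Hochberg adjusted p = 0.0527), and it passed without SE 72 h replicate 3 (log2FC 4.16, adjusted p = 0.00827, same test) and with DESeq2 (3.12, adjusted p = 0.0154). A difference among the 5 SE times was not called for Cxcl1 (adjusted p = 0.0746 by edgeR's quasi-likelihood test, Benjamini-Hochberg), but was with DESeq2 (0.0466) and limma-voom (0.0212). The other 9 were called, as were 46.6% of all genes. That call for Ccl5 was marginal (adjusted p = 0.0447, same test) and was lost in 14 of the 16 omissions of a library. That for Cxcl16 was lost without the correction for unwanted variation (adjusted p = 0.161) and with a sensory ganglion score in its place (0.066, both by edgeR's quasi-likelihood test, Benjamini-Hochberg).

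Cxcl10 (IP-10), an interferon-inducible ligand that draws T and NK cells, had the widest range over time. It measured 1.12, 0.882 and 2.76 CPM at 6 h, 6.66, 1.82 and 3.82 at 12 h, 47.0, 6.88 and 19.5 at 24 h, 45.9, 16.4 and 34.3 at 36 h, and 16.2, 9.44 and 7.5 at 72 h. Its highest group mean (36 h) was 20.3 times the lowest (6 h), and controls held 7 counts in all. Cxcl10 was at least 69.6-fold higher at 12 h, where Ctr 12 h held no count, 229 times Ctr 36 h by the means, and 224 times Ctr 72 h over 1 control count (95% counting interval 40 to 8854). That count was in Ctr 72 h replicate 2, and without this library Cxcl10 was at least 53.4-fold higher at 72 h. The count ratio of Cxcl10 to Ccl3 was 0.0173 to 0.0676 at 6 h, 0.103 to 0.515 at 12 h, 0.470 to 2.01 at 24 h, 1.48 to 1.99 at 36 h, and finally 1.08 to 2.76 at 72 h. An exonic stretch of 133 bases is shared with Art3 on the other strand, and reads were counted without regard to strand. Strand thus cannot assign reads of the stretch, and with HTSeq's other settings at their defaults they may be absent from the counts of both genes. Art3 measured 1.33 to 16.04 CPM in SE and 2.81 to 30.5 CPM in control libraries, and the effect of the shared stretch on the Cxcl10 values was not tested.

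Cxcl16, a membrane-bound ligand that can be shed by proteases, had a higher group mean at each later time. It measured 3.92, 2.84 and 5.65 CPM at 6 h, 4.67, 5.37 and 4.70 at 12 h, 9.35, 7.75 and 5.89 at 24 h, 12.5, 7.72 and 13.2 at 36 h, and 11.7, 10.4 and 18 at 72 h. Controls held 0 to 1.31 CPM except Ctr 72 h replicate 2 with 9.38 CPM (55 counts). The log2FC was 2.67 (s.e. 0.47), 3.5 (s.e. 0.46) and 3.83 (s.e. 0.56) at 12, 36 and 72 h, the last with an adjusted p of 3.79e-05 by edgeR's quasi-likelihood test, Benjamini-Hochberg. At 72 h it was 6.01 without Ctr 72 h replicate 2, and 2.01 without the correction for unwanted variation or with the compared groups alone, where the call was lost (adjusted p = 0.0518 and 0.316, same test). At 12 h the call was lost with the sensory ganglion score (log2FC 1.88, adjusted p = 0.0637, same test). Cxcl16 shares 2132 exonic bases with Zmynd15 and 2213 with Med11 on the other strand. Reads of these bases cannot be assigned by strand, and they too may be absent from the counts of each gene. Zmynd15 was called at 36 h (log2FC 1.55, s.e. 0.53) and not at 12 or 72 h, and Med11 at none of them. The effect of the shared bases on the Cxcl16 values was not tested.

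Cx3cl1 (fractalkine) stood between percentiles 98.2 and 99.4 of genes per transcript length in every group, and was not called against the time-matched controls. It measured 661, 689 and 787 CPM at 6 h, 758, 927 and 744 at 12 h, 755, 606 and 1194 at 24 h, 542, 656 and 627 at 36 h, and 330, 440 and 509 at 72 h. Controls measured 552, 591 and 600 CPM at 12 h, 725, 755 and 698 at 36 h, and 627, 424 and 620 at 72 h. SE libraries lay above controls at 12 h, below them at 36 h and overlapped them at 72 h. The log2FC was 0.48 (s.e. 0.18) at 12 h, below the 0.66 of a call though its adjusted p was 0.0438 by edgeR's quasi-likelihood test, Benjamini-Hochberg, -0.25 (s.e. 0.18) at 36 h and -0.38 (s.e. 0.18) at 72 h (adjusted p = 0.309 and 0.13, same test). Without Ctr 72 h replicate 2 the adjusted p at 72 h was 0.021, with a log2FC of -0.56 that was still short of the 0.66 of a call (same test). A list of 9 neuronal marker genes summed to 5361 to 6871 CPM in SE 12 h and 7468 to 10420 in Ctr 12 h, to 6045 to 7286 and 8230 to 8355 at 36 h, and to 5607 to 5955 and 7760 to 8617 at 72 h. SE libraries thus lay below their controls at each of these times, also at 12 h, where Cx3cl1 lay above them. Of the 9 genes, 1 (Syt1), 2 (Syt1 and Slc17a7) and 2 (Snap25 and Syt1) were called lower at 12, 36 and 72 h and none higher, and their part in the Cx3cl1 values was not tested. Among all genes, 25.2%, 21.6% and 19.4% were called in either direction at these times (13.9%, 12.7% and 15.2% higher). The remaining calls were lower, and were the smaller part at each time. The SE effect itself differed between 72 and 12 h, by -0.85 (s.e. 0.26; edgeR's quasi-likelihood test, Benjamini-Hochberg adjusted p = 0.0226), the single call among these genes, where 18.6% of all genes were called (6.31% lower). Ccl2 and Ccl4 had an unadjusted p under 0.05 for this difference. For the effects at 36 against 12 h (3.38% of all genes called) and 72 against 36 h (4.81%) none of the 10 was called, with unadjusted p under 0.05 for Ccl12 and Cx3cl1 in the former and Ccl2 in the latter.

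**Figure D3:**
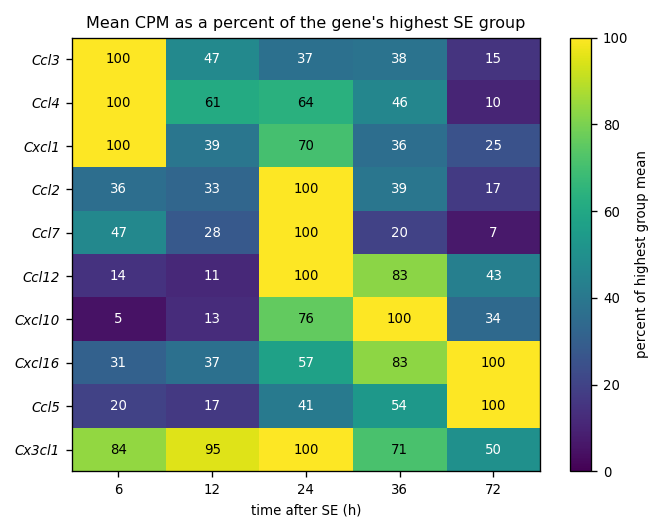
Mean CPM of 3 libraries at each time after SE (columns, h), as a percent of the gene's highest SE group mean (rows are genes, colour and number give the percent). Ccl3, Ccl4 and Cxcl1 are highest at 6 h, Ccl2, Ccl7 and Ccl12 at 24 h, Cxcl10 at 36 h, Cxcl16 and Ccl5 at 72 h, and Cx3cl1 ranges from 50.1% to 100%.

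Steps between consecutive SE times were tested at an absolute log2FC of at least 1. From 6 to 12 h none of the 10 was called (1.34% of all genes were), with Ccl3 and Cxcl1 at an unadjusted p under 0.05. From 12 to 24 h, 4 were called, all higher (3.18% of all genes were called, 1.47% higher): Ccl12 (log2FC 3.14, s.e. 0.54), Cxcl10 (2.69, s.e. 0.56), Ccl7 (1.87, s.e. 0.54) and Ccl2 (1.53, s.e. 0.45). The calls of Ccl7 and Ccl2 were each lost in 5 of 7 omissions of a library and in 4 of 13 other settings, that of Cxcl10 with the compared groups only (adjusted p = 0.138 by edgeR's quasi-likelihood test), and 2 genes were called without SE 12 h replicate 1 or 2, or without SE 24 h replicate 1 or 3. From 24 to 36 h none was called (0.529% of all genes were), with Ccl2, Ccl7 and Cx3cl1 at an unadjusted p under 0.05, and with Ccl7 at a log2FC of -2.39 (s.e. 0.56; edgeR's quasi-likelihood test, Benjamini-Hochberg adjusted p = 0.0535), which was called with DESeq2 (0.0049), limma-voom (0.0358) and thinned counts (0.0447). Against the mean of the controls, 9 genes were called at each time from 6 to 72 h, all higher, where 22%, 28.6%, 24.1%, 23.7% and 22.1% of all genes were (15.8%, 17.7%, 14.9%, 14.9% and 17.1% higher). Of these calls, those of Ccl5 were lost at all 5 times with the label ranges, and at 12 h also with limma-voom (adjusted p = 0.222) and without SE 12 h replicate 2 (0.152 by edgeR's quasi-likelihood test). At 72 h that of Ccl7 was lost with thinned counts (adjusted p = 0.0984 by edgeR's quasi-likelihood test) and that of Cxcl1 with limma-voom (0.0527). Between control groups none of the 10 was called by edgeR's quasi-likelihood test, where 0%, 1.97% and 0.931% of all genes were (36 against 12 h, 72 against 36 h and 72 against 12 h), with 0, 2 and 0 of them at an unadjusted p under 0.05.

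Per kilobase of transcript, the order of the mean levels differed between times. Cx3cl1 led at every time, with 215 CPM per kb at 6 h and 129 at 72 h. At 6 h Ccl3 (58.8 CPM per kb) and Ccl4 (50.5) followed, whose libraries overlapped, and Ccl2 (13.5) lay below both. At 24 h Ccl2 (37.4), Ccl12 (32.4) and Ccl4 (32.1) overlapped, at 36 h Cxcl10 (29.2) and Ccl12 (26.8) did, and at 72 h Ccl12 (14) and Cxcl10 (10.0) did. Replicates varied together in part: 9 of the 10 genes were highest in replicate 3 of SE 6 h and 8 lowest in replicate 1, and in SE 36 h 8 were highest in replicate 1 and 8 lowest in replicate 2.

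Of 18 receptor genes listed, 7 were in the table, and Ccr3, Cxcr3 and Cxcr6 were not. Ccr1, a receptor of Ccl3 and Ccl5, was called higher at 12, 36 and 72 h, with a log2FC of 4.00 (s.e. 0.66), 4.28 (s.e. 0.66) and 3.73 (s.e. 0.68), the last 4.01 (s.e. 0.83) without Ctr 72 h replicate 2. Ccr2, the receptor of Ccl2, Ccl7 and Ccl12, measured 6.86, 2.48 and 0.292 CPM at 72 h and 0.0844, 4.09 and 0 in Ctr 72 h, and was called (log2FC 3.44, s.e. 1.2; edgeR's quasi-likelihood test, Benjamini-Hochberg adjusted p = 0.0391). These groups overlapped through Ctr 72 h replicate 2 alone, and without it the log2FC was 5.14 (s.e. 1.59; adjusted p = 0.0262, same test). That run kept the SE 72 h libraries, where the sensory ganglion list summed to 1557, 832 and 112 CPM in replicates 1, 2 and 3, the same order as Ccr2. The part of that tissue in the Ccr2 values was not tested. Cxcr2, the receptor of Cxcl1, held 0 to 1.42 CPM and was not called at 12, 36 or 72 h. Ccr10, which binds none of these ligands, was called at 72 h (log2FC 2.88, s.e. 0.95) and not at 12 or 36 h, and at 72 h the call was lost without that library (2.22, s.e. 0.98).

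Cx3cr1, the receptor of Cx3cl1, was called lower at 6 h and higher at 36 and 72 h. It measured 35.2, 26.3 and 25.3 CPM at 6 h, below all 9 controls (37.9 to 79.7 CPM), 49.5 to 52.1 at 12 h and 165, 236 and 287 at 72 h. Its log2FC was -0.98 (s.e. 0.16) at 6 h against the mean of the controls, 0.81 (s.e. 0.18) at 36 h and 2.01 (s.e. 0.19) at 72 h, the last 1.75 (s.e. 0.23) without Ctr 72 h replicate 2. The microglial marker list (9 of 10 genes in the table, Fcrls not) summed to 183 to 209 CPM at 6 h, 261 to 370 in the 9 control libraries (261 to 332 in Ctr 72 h), and 854 to 1256 at 72 h; its part in these values was not tested. Among the proteases that shed Cx3cl1 or Cxcl16, Ctss and Adam17 were called higher at 36 h (log2FC 0.88, s.e. 0.13, and 0.72, s.e. 0.14) and 72 h (2.29, s.e. 0.14, and 1.30, s.e. 0.15; without Ctr 72 h replicate 2, 2.34 and 1.22), and Adam10 was not called at 12, 36 or 72 h.

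**Figure D4:**
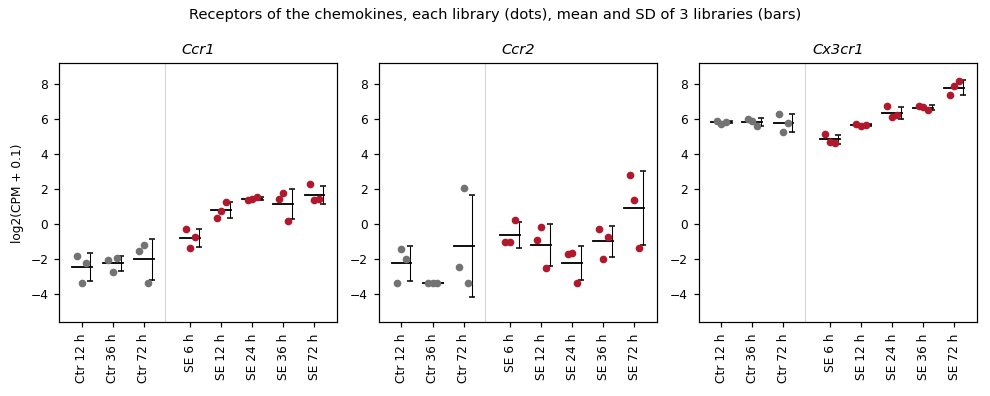
Level of Ccr1, Ccr2 and Cx3cr1 as log2(CPM + 0.1), on the vertical axis, in control (grey) and SE groups (red); dots are libraries, and bars give the mean and SD of 3 libraries. Cx3cr1 lies below all controls at 6 h (25.3 to 35.2 CPM) and above them at 72 h (165 to 287 CPM), and Ccr2 at 72 h overlaps its controls through 1 library, Ctr 72 h replicate 2.

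Of 28 other ligands listed, 12 were in the table. At 12 h 3 were called, all higher (Ccl6, Ccl9 and Ccl11), at 36 h 4 higher (these and Pf4) and 2 lower (Cxcl12 and Cxcl14), and at 72 h 2 higher (Ccl6 and Ccl9) and 1 lower (Cxcl12). Of all genes, 25.2%, 21.6% and 19.4% were called at these times, so the 3 of 12 at 12 and 72 h were near the background. Without Ctr 72 h replicate 2, 3 were higher at 72 h (Ccl6, Ccl9 and Ccl11) and 2 lower (Cxcl12 and Ccl27a), where 16.8% of all genes were called. Ccl9, which lies between Ccl5 and Ccl3, went from 1.23 to 1.66 CPM in Ctr 12 h to 28.3 to 58.6 in SE 12 h (log2FC 4.75, s.e. 0.36). Ccl11 (eotaxin), between Ccl7 and Ccl12, measured 3.83, 4.08 and 7.97 CPM at 12 h and 0 in Ctr 12 h, while Ctr 72 h replicate 2 held 4.95 CPM. Cxcl12, the ligand of Cxcr4, had a log2FC of -1.26 (s.e. 0.28) at 36 h and -1.07 (s.e. 0.28) at 72 h. Of the atypical receptors, which bind chemokines without signalling through G proteins, Ackr2 was called lower at 12 h (-2.15, s.e. 0.58) and 36 h (-2.07, s.e. 0.57), and Ccrl2 higher at 72 h (1.82, s.e. 0.66), which was not called without Ctr 72 h replicate 2 (1.13, s.e. 0.67).

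Of leukocyte markers, 3 of 5 neutrophil genes tested and 4 of 5 monocyte genes tested were called higher at 72 h, where 15.2% of all genes were. The neutrophil genes called were Ngp, Camp and Csf3r (log2FC 22.3, 12.2 and 2.19), and S100a8 (1.01) and S100a9 (2.65) were not. The values of Ngp and Camp came from the fit and are not measured folds. Leaving out Ctr 72 h replicate 2 changed them to 7.23 (s.e. 4.66) and 4.81 (s.e. 4.19). Without Ctr 72 h replicate 2, 1 of 6 neutrophil genes (Csf3r) and 4 of 6 monocyte genes were called higher, against 11.9% of all genes. The neutrophil list (6 of 8 genes in the table, Ly6g and Mmp8 not) summed to 2.25 to 9.89 CPM at 6 and 12 h, 54.3 to 63.4 at 72 h, and 7.17 to 33.8 in controls. The monocyte list (6 of 8, Ly6c2 and Plac8 not) summed to 258 to 300 CPM at 24 h, 317 to 456 at 36 h, 489 to 664 at 72 h and 92.9 to 192 in controls. Called at 72 h, with and without Ctr 72 h replicate 2, were Ccr2, Chil3, Vcan and Fn1. With that library their log2FC was 3.44, 10.57, 1.29 and 1.89, and Itgal (0.59) was not called. The value of Chil3 was likewise a fitted one, and was 6.98 (s.e. 2.14) without that library. Mean Ccr2 was 0.143 CPM at 24 h, so this sum did not follow Ccr2. The T cell genes Cd3e, Cd3d and Cd3g were not in the table. The astrocyte list (8 genes, all in the table) summed to 5521 to 9214 CPM in SE libraries of 6 to 36 h, 12870 to 14410 at 72 h and 4890 to 5998 in controls. Its genes did not move alike: Gfap, Aqp4 and Aldh1l1 were called higher at 36 h and Slc1a2, Slc1a3, Aldoc and Gja1 lower, and at 72 h 3 were higher (Gfap, Aqp4 and Aldh1l1) and none lower. The list of endothelial and mural genes (8, all in the table) summed to 449 to 733 CPM in SE libraries and 295 to 451 in controls, and at 12, 36 and 72 h 4, 5 and 4 of its genes were called higher (5 at 72 h without Ctr 72 h replicate 2), and 1 (Rgs5, at 12 h) lower. Among all genes, 25.2%, 21.6% and 19.4% were called in either direction at 12, 36 and 72 h (13.9%, 12.7% and 15.2% higher). The part of all these cells in the chemokine values was not tested.

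Genes nearest to a member in log2FC over the 5 times, against the mean of the controls, were named by the root mean square difference. The search left out the members themselves, and also scarce genes, whose log2 CPM averaged under 0. A member can thus lie nearer to another member than the gene named, as Ccl2 did to Ccl7. Nearest were Tfpi2 to Ccl2 (0.60) and to Ccl7 (0.69), Tnf to Ccl3 (0.88), Gm47316 to Ccl4 (0.81), Scgb3a1 to Ccl5 (0.49) and AA467197 to Ccl12 (0.55). For the remaining members they were Atf3 to Cxcl1 (0.47), Cd300lb to Cxcl10 (1.15), Parp3 to Cxcl16 (0.25) and Mical2 to Cx3cl1 (0.09). All are descriptions over 5 group values that share the same controls.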

How the data were processed

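RNA of mouse CA1 was measured in 24 libraries of 8 groups. The authors trimmed reads with Trim Galore 0.6.6, merged lanes, aligned reads with STAR 2.7.8a to GRCm39, sorted alignments with SAMtools 1.10 and counted them per gene of GENCODE M26 with HTSeq 0.13.5 without regard to strand, and they deposited raw counts. Groups were taken from the sample labels. Symbols and positions came from a later GENCODE release on the same build, which matched 18552 genes and left 95 unmatched.

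Counts were TMM-normalized, filtered with filterByExpr (18153 genes) and fitted in edgeR 4.0.16 (R 4.3.3) as group means plus a single RUVr factor, which was 0.797 in Ctr 72 h replicate 2 and within -0.383 to 0.136 elsewhere. The quasi-likelihood test was used with Benjamini-Hochberg adjustment over all genes tested, and s.e. is the log2FC over the root of F. This quotient is approximate and can be too small where controls hold almost no counts. For Ccl2 it was 0.75 at 12 h and 0.87 at 36 h, but 1.80 for the difference of these effects. Folds against a control group with no count are lower bounds against 3 counts over the group. Scripts were tested on simulated data. Members and lists were chosen with earlier results of these data known. Genes named beside the members are the receptors of the members and any listed ligand, receptor, atypical receptor or protease called at 12, 36 or 72 h, except 1 receptor that is not reported here. Replicates were compared for duplicates, and none was found. Same-numbered SE and control libraries did not deviate together (r from -0.201 to 0.181), so the numbers were not used as pairs. Alternatives were DESeq2 1.42.0, limma 3.58.1 (voom), other scaling, filters and thresholds, a replicate block, a factor for ranges of the label numbers, thinned counts and the omission of each library. Added after values were seen were a score of sensory ganglion genes replacing RUVr and the omission of Ctr 72 h replicate 2 from all comparisons.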

Additional observations from a re-analysis of the deposited data

Results flagged for a closer look

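The SE effect on Cx3cl1 differed between times. Its log2FC against the time-matched controls was 0.48 (s.e. 0.18) at 12 h and -0.38 (s.e. 0.18) at 72 h, a difference of -0.85 (s.e. 0.26) with an adjusted p of 0.0226 by edgeR's quasi-likelihood test, Benjamini-Hochberg. All 3 SE libraries lay above the controls at 12 h, and at 72 h all 3 lay below Ctr 72 h replicates 1 and 3, while 2 of them lay above replicate 2 (424 CPM). The call was lost without SE 72 h replicate 1 (adjusted p = 0.0691), SE 12 h replicate 2 (0.058), Ctr 12 h replicate 1 (0.0506), Ctr 72 h replicate 1 (0.0575) or Ctr 72 h replicate 3 (0.0556), and with the label ranges as a factor (0.161), by the same edgeR test.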

How the results depend on the processing

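No log2FC of the 10 genes that was called changed sign under any alternative run, 85 gene results lost a call and 37 gained one. The count of called genes at 72 h was 4 with limma-voom and 4 with the compared groups only. In the latter Ccl2 and Cxcl16 lost the call, and Ccl5 and Ccl7 were not tested. At 12, 36 and 72 h Ccl5 was tested in 10 of the 13 settings other than omissions of a library. From 12 to 24 h it was 2 without RUVr, 2 with the label range and 1 with the compared groups only. From 24 to 36 h it was 1 with DESeq2, 2 with limma-voom and 1 with thinned counts. From 36 to 72 h it was 2 with the stricter filter of 10 counts, 2 with the replicate block and 2 with the compared groups only. For differences of the SE effect, DESeq2 gave 1 and the compared groups 1 (36 minus 12 h), no RUVr 1, DESeq2 1 and the sensory ganglion score 1 (72 minus 36 h), and no RUVr 2, DESeq2 4, the label range 0, the other log2FC threshold 0 and the compared groups 2 (72 minus 12 h). The replicate block changed no other count by over 1.5 times, and of single genes it ended the call of Ccl7 at 72 h (adjusted p = 0.061) and of Ccl5 among the SE times (0.0719) and added Cxcl10 from 36 to 72 h (0.0188), all by edgeR's quasi-likelihood test. Omitting 1 library gave counts of 8 to 9 at 12 h and at 36 h, 6 to 8 at 72 h, 8 to 10 against the mean of the controls, 0 to 1 (6 to 12 h), 2 to 4 (12 to 24 h), 0 to 1 (24 to 36 h), 1 to 2 (36 to 72 h), 0 to 1, 0 to 1 and 0 to 3 for the differences of the SE effect, 0 to 1 between controls and 8 to 9 among the SE times. Counts moved by over 1.5 times without SE 6 h replicate 1 (6 to 12 h, 1), SE 12 h replicates 1 and 2 or SE 24 h replicates 1 and 3 (12 to 24 h, 2), SE 24 h replicate 2 or Ctr 72 h replicate 2 (24 to 36 h, 1), and Ctr 72 h replicate 2 (36 to 72 h, 2). For differences of the SE effect they did without Ctr 72 h replicate 2 or SE 36 h replicate 2 (36 minus 12 h, 1), Ctr 72 h replicates 1 or 3 (72 minus 36 h, 1), and, for 72 minus 12 h, Ctr 72 h replicate 2 (3), Ctr 12 h replicate 1, SE 12 h replicate 2 or SE 72 h replicate 1 (0). The fit of the compared groups only was not run against the mean of the controls or among the SE times. Between controls, Ctr 72 h against Ctr 36 h gave 1 without Ctr 72 h replicate 1. The causes were not tested.

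With 3 counts per library as the floor, the bounds became 0.917 and 1.77 for Ccl5 at 12 and 72 h, 11.4 for Ccl7 and 20.3 for Cxcl10 at 12 h. Scaling by library size moved the median of all genes to 0.127 at 36 h and 0.142 at 72 h. Cx3cl1 in Ctr 36 h had a mean of 696 CPM on that scale. The numbers in the sample descriptions, whose meaning is not given, fall into ranges (92 to 104, 109 to 122, 162 to 169); at 72 h no range holds both SE and control libraries, so range and group cannot be told apart, and at 36 h all 3 controls and 2 SE libraries share a range. With counts thinned to the smallest library, calls against the time-matched controls were lost for Ccl12 at 12 h (adjusted p = 0.0506) and Ccl7 at 36 h (0.0541) and 72 h (0.405), by edgeR's quasi-likelihood test.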
